A study of Mus musculus with 5 samples.

Results

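The genes described here form the activin and TGF-beta branch of growth factor signalling in the uterus of young mice: the activin subunit genes Inhba and Inhbb, the activin antagonist gene Fst, the ligand genes Tgfb1, Tgfb2 and Tgfb3, the receptor genes Tgfbr1, Tgfbr2 and Tgfbr3, and Tgfbi, a matrix protein gene named for its induction by TGF-beta. Every probe listed on the array under 1 of these 10 names (there in capitals: INHBA, INHBB, FST, TGFB1, TGFB2, TGFB3, TGFBR1, TGFBR2, TGFBR3 and TGFBI) was taken, which gave 18 of 45281 probes. No further probe carried an older name of these genes. Of the 18 probes, 15 were detected on all 5 arrays and were tested, while 2 of the 4 Tgfbr1 probes and 1 of the 4 Tgfbr2 probes were detected on none and were not tested.

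The study compared uteri with and without Dicer, which releases mature microRNAs from their hairpin precursors, in C57BL/6J;129S5/Brd mixed hybrid mice aged 15 days. The knockout (Dicer cKO) was made with Cre recombinase driven from the progesterone receptor locus, so Dicer is lost in cells that express or have expressed that receptor and is kept in the other cells of the uterus. Pools of uteri were each read on 1 Illumina bead array: 3 control pools, labelled wild type (7, 9 and 11), and 2 of Dicer cKO uteri (10 and 12). The sources used here do not say how many uteri went into a pool, nor whether the controls carried Cre or a floxed Dicer allele. The p-values therefore rest on the spread between these pools, which limma moderates for each probe with the spread of other probes of like signal. An effect of the Cre insertion and one of Dicer loss therefore cannot be told apart.

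Activins are dimers of inhibin beta subunits. Activin A is built from the Inhba product and activin B from the Inhbb product, and with the alpha subunit (Inha) the same beta subunits form inhibins, which oppose activins. Activins bind type II receptors (Acvr2a, Acvr2b), which recruit a type I receptor, and TGF-beta ligands bind Tgfbr2, which recruits Tgfbr1; both branches phosphorylate Smad2 and Smad3. Follistatin (Fst) and follistatin-like 3 (Fstl3) bind activins and keep them from their receptors, and betaglycan (Tgfbr3) presents TGF-beta and binds inhibin. In the uterus this signalling is known for its part in growth, gland development and decidualisation.

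The base sequence just upstream of an annotated transcript start is shown for the 3 genes that differed between the groups, Inhbb, Tgfbr1 and Tgfbi, and for Inhba, the other activin subunit. Each window holds 250 bases before the start that the RefSeq promoter table of GRCm38.p6 lists, 5′ to 3′ on the strand of the gene; the table held 7 of the 10 genes. For Inhbb, Tgfbr1 and Tgfbi that start is the outer end of the annotated gene, whereas the Inhba window lies inside the annotated span of its gene (chr13:16004256-16031609), before the only Inhba start in the table. Capitals mark CAGAC or its reverse complement GTCTG (the core of the CAGA box bound by SMAD3 and SMAD4), TATAAA or TTTATA (the TATA box), and GGGCGG or CCGCCC (the GC box).
Inhbb, chr1:119422249-119422498, minus strand: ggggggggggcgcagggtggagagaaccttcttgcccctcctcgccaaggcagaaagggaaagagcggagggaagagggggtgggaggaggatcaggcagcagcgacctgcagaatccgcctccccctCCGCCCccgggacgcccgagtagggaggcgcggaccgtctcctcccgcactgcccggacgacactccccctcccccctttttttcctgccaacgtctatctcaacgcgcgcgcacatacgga
Inhba, chr13:16011601-16011850, plus strand: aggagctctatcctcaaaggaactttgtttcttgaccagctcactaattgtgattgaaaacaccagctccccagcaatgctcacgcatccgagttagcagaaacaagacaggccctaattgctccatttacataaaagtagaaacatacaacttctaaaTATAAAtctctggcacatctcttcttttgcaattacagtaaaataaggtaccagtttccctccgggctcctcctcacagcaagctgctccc
Tgfbr1, chr4:47352972-47353221, plus strand: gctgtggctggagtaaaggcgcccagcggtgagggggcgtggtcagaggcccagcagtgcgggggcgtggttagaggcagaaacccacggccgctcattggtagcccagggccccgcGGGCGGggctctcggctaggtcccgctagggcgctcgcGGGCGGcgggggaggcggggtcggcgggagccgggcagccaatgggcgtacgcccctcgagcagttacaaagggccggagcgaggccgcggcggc
Tgfbi, chr13:56609336-56609585, plus strand: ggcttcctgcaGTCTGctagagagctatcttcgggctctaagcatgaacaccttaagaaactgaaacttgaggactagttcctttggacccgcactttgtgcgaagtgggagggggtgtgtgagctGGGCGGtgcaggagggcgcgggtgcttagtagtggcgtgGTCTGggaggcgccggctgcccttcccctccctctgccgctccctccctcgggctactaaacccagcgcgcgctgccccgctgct
The Inhbb window was 68.0% G or C with 21 CpG dinucleotides and 1 GC box. The Inhba window was 43.2% G or C with 3 CpG dinucleotides and 1 TATA box; being placed differently within the gene, these windows are described and not compared. Over all 32841 windows of this length in the table the medians were 52.4% and 6. The Tgfbi window held 2 matches to the CAGA core and the other printed windows held 0, while 42.2% of all windows held at least 1. The TATA box was present in 12.4% and the GC box in 32.7% of all windows. These are matches of letters only, and binding was not measured.

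The arrays resembled each other closely. Between 47.0% and 49.5% of the probes were detected on an array, and the correlation of log2 signals across 22845 kept probes lay between 0.992 and 0.994 within groups and between 0.977 and 0.989 between them. Dicer1 itself, read by its brighter probe, was lower in the Dicer cKO pools by 0.43 ± 0.09 (log2, SE; limma adjusted p = 0.0233), while a second, dimmer probe, at -0.22 ± 0.13, missed the threshold (limma adjusted p = 0.392). Pgr, the progesterone receptor gene, was lower by 0.77 ± 0.14 (limma adjusted p = 0.0079). The labels name a human array, but the gene names in the files are those of mouse genes.

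Among the 10 genes, Inhbb and Tgfbr1 were higher and Tgfbi was lower in Dicer cKO uteri, and the other 7 genes were not called. Signals are log2 values after background correction and quantile normalization; a difference is Dicer cKO minus control, and a probe was called at a limma adjusted p under 0.05 over all kept probes. Of the 15 tested probes 2 were called higher and 2 lower, or 26.7%, against 5.87% of all 22845 kept probes (2.35% higher and 3.52% lower). The median difference over the 15 probes was -0.06, and over all kept probes it was 0.01. The groups did not overlap for 6 of the 15 probes, against 36.7% of all kept probes, and 6 had an unadjusted p under 0.05, against 19.6%. The members are few and 2 of the called probes read the same gene, so these shares describe the 15 probes only.

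**Figure D1:**
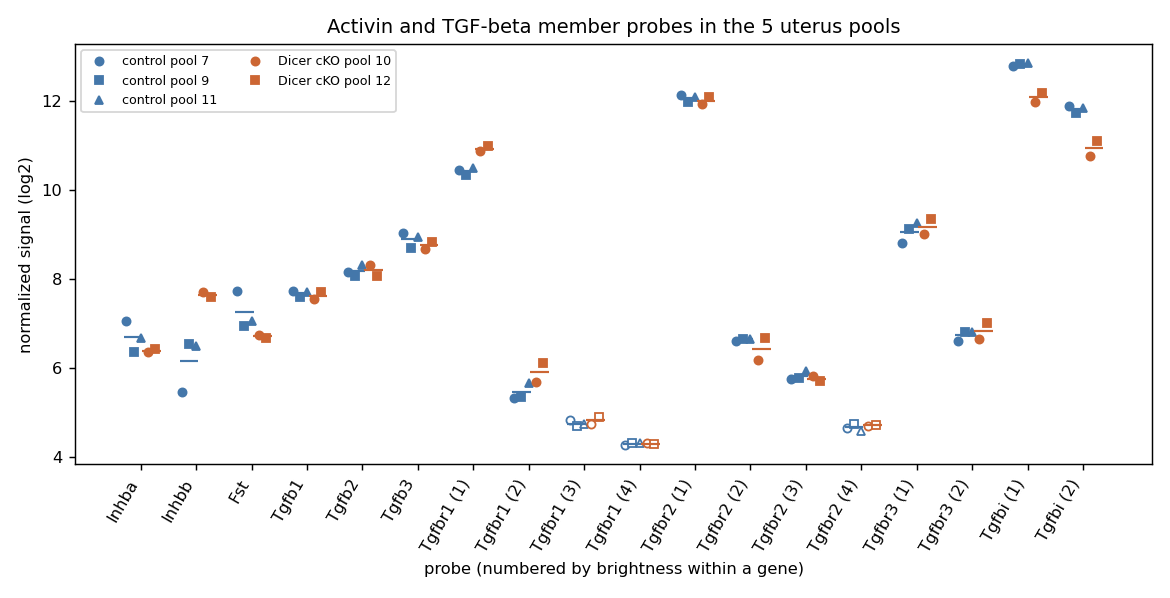
Normalized log2 signal (vertical axis) of all 18 probes of the 10 genes (horizontal axis) in 3 control pools (blue) and 2 Dicer cKO pools (orange); short lines are group means and open symbols are probes that were not tested. Both Dicer cKO pools lie above all control pools for Inhbb and Tgfbr1 (1) and below them for both Tgfbi probes, and control pool 7 stands apart from the other controls for Inhbb and Fst.

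Inhbb, the subunit of activin B, showed the largest difference of the 10 genes. Its probe read 7.69 and 7.58 in the knockouts (pools 10 and 12, always in this order), against 5.44, 6.53 and 6.48 in the controls (pools 7, 9 and 11, likewise). Both Dicer cKO pools thus lay above every control pool, and control pool 7 was the lowest of the 5. The deposited intensities before any correction ran the same way, at 78.7, 126.8 and 112.2 in the controls and 219.6 and 224.5 in the Dicer cKO pools. The difference was 1.49 ± 0.27 (SE; 95% confidence interval 0.88 to 2.10; limma adjusted p = 0.0104), a 2.80-fold rise, and 0.556% of all kept probes differed by as much or more.

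The size of the Inhbb rise depended on control pool 7, and its call on both Dicer cKO pools and on how the spread was estimated. Without control pool 7 the difference was 1.13 ± 0.13 and the call held (limma adjusted p = 0.0021). With only 1 Dicer cKO pool, which is then assumed to vary as the controls do, the difference was 1.43 without pool 10 and 1.54 without pool 12, and neither was called (limma adjusted p = 0.145 and 0.056). With all 5 pools and a robust estimate of the spread the call was lost too (limma adjusted p = 0.0605).

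Inhba, the subunit of activin A, was not called. Its probe read 7.06, 6.35 and 6.67 in the controls and 6.35 and 6.41 in the knockouts, so that the groups overlapped. The difference was -0.31 ± 0.19 and was not called (95% confidence interval -0.73 to 0.10; limma adjusted p = 0.404). Control pool 7 was here the highest of the 5 pools. Without it the Inhba difference was -0.13.

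Follistatin, the secreted antagonist of activins, did not pass the test. Fst read 7.73, 6.94 and 7.05 in the controls and 6.74 and 6.67 in the knockouts. All Dicer cKO readings were below all control readings, and control pool 7 was again the highest. The difference was -0.53 ± 0.21 (95% confidence interval -0.99 to -0.07), with an unadjusted p of 0.0269 and a limma adjusted p of 0.183. Without control pool 7 the Fst difference shrank to -0.29 ± 0.14 (limma adjusted p = 0.369).

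Inhbb was also set against Inhba and Fst within each array. The log2 signal of Inhbb minus that of Fst was -2.29, -0.42 and -0.57 in the controls and 0.95 and 0.91 in the knockouts, a change of 2.02 between the group means. For Inhbb minus Inhba the values were -1.61, 0.17 and -0.19 in the controls and 1.34 and 1.17 in the Dicer cKO pools, a change of 1.80. The groups did not overlap for either pair. Both changes lean on control pool 7, which gave -2.29 and -1.61. Without that pool Inhbb differed by 1.13, Fst by -0.29 and Inhba by -0.13, each smaller in size than with all 5 pools. Only 10 splits of 5 pools exist, so an exact 2-sided permutation test cannot give less than 0.1. Both pairs reached that value (0.1 also after adjustment over the 4 pairs compared). Inhbb was already called in these same pools, so the separation of the pairs and the test are no separate result. A within-array difference is set by how probes bind as well as by the transcripts, so only its change between pools can be read.

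None of the 3 TGF-beta ligand genes was called by limma, and 0 had an unadjusted p under 0.05. Tgfb1 read 7.72, 7.58 and 7.70 in the controls and 7.54 and 7.70 in the knockouts, a difference of -0.05 ± 0.11 with a 95% confidence interval of -0.30 to 0.20. Tgfb2 read 8.14, 8.05 and 8.30 in the controls and 8.31 and 8.05 in the Dicer cKO pools, a difference of 0.02 ± 0.12 with an interval of -0.25 to 0.29. Tgfb3 read 9.03, 8.69 and 8.94 in the controls and 8.67 and 8.82 in the Dicer cKO pools, a difference of -0.14 ± 0.12 with an interval of -0.41 to 0.12. The groups overlapped for all 3 ligands, and the intervals leave room for changes of up to 0.41 log2 units in size.

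Of the receptors, Tgfbr1, the type I receptor kinase of TGF-beta (also known as Alk5), was higher in Dicer cKO uteri. Its brightest probe read 10.45, 10.33 and 10.48 in the controls and 10.87 and 10.98 in the knockouts. The Dicer cKO readings lay above all controls, and the SD was 0.08 among the controls. The difference was 0.50 ± 0.08 (95% confidence interval 0.32 to 0.69; limma adjusted p = 0.0057), a 1.42-fold rise. It was called in all 13 alternative settings, at differences from 0.45 to 0.56.

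The other Tgfbr1 probes carried less signal. The second probe read 5.33, 5.34 and 5.65 in the controls and 5.68 and 6.11 in the knockouts, and its difference of 0.46 ± 0.17 was not called (limma adjusted p = 0.173). Its Dicer cKO readings lay above the controls, but the difference rested on pool 12, at 0.24 without it and 0.68 without pool 10. The other 2 Tgfbr1 probes were not detected on any array. The transcripts of Tgfbr1 that each probe reads are not known here.

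Tgfbr2, the type II receptor that binds TGF-beta first, was not called by any of its 3 tested probes. The brightest read 12.13, 11.96 and 12.09 in the controls and 11.93 and 12.07 in the knockouts, a difference of -0.06 ± 0.08 with a 95% confidence interval of -0.24 to 0.12. Its other tested probes differed by -0.21 ± 0.16 and -0.06 ± 0.14. The first of these had a low reading of 6.18 in Dicer cKO pool 10, while the other 4 pools lay between 6.61 and 6.67. Within each array, Tgfbr1 minus Tgfbr2 (brightest probes) lay between -1.68 and -1.61 in the controls. In the Dicer cKO pools it lay between -1.10 and -1.05, a change of 0.56. The exact permutation test gave 0.1, the lowest value it can give here. Tgfbr1 was already called in these same pools, so this separation is no separate result.

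Tgfbr3, encoding the co-receptor betaglycan, was not called. Its brighter probe read 8.79, 9.11 and 9.25 in the controls and 9.00 and 9.33 in the knockouts, a difference of 0.11 ± 0.14 with a 95% confidence interval of -0.21 to 0.43. Its dimmer probe differed by 0.09 ± 0.15. The readings of both groups interleaved, and the sign of both probes turned when 1 pool was left out.

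Tgfbi, the secreted matrix protein, was lower in Dicer cKO uteri by both of its probes. The brighter probe read 12.79, 12.83 and 12.85 in the controls and 11.97 and 12.18 in the knockouts. The second probe read 11.89, 11.72 and 11.83 in the controls and 10.77 and 11.08 in the Dicer cKO pools. On both probes the controls lay close together, every Dicer cKO reading was below them, and pool 10 was the lowest. The probes fell by 0.74 ± 0.08 (95% confidence interval -0.91 to -0.57; limma adjusted p = 4.0e-04) and 0.89 ± 0.10 (interval -1.11 to -0.67; limma adjusted p = 6.1e-04), which puts the Dicer cKO signal at 59.8% and 54.0% of the control signal. By p-value the brighter probe stood at rank 109 and the second at rank 143 of the 22845 kept probes. Both calls held in every alternative setting in which the probe was tested.

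**Figure D2:**
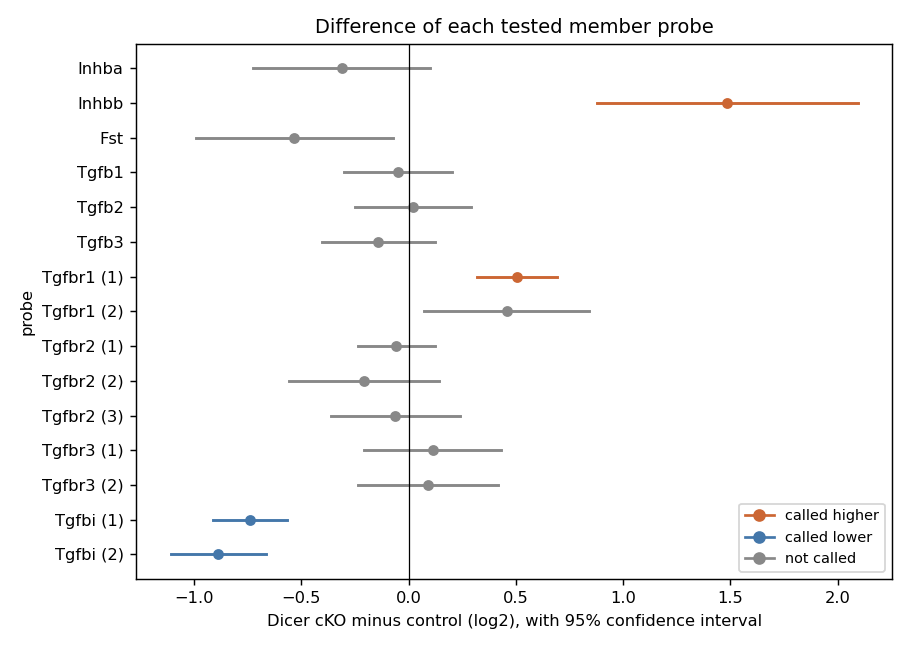
Difference between Dicer cKO and control pools (log2, horizontal axis) for the 15 tested probes (vertical axis), with 95% confidence intervals from limma. The intervals of Inhbb and the brightest Tgfbr1 probe (orange) lie above 0 and those of both Tgfbi probes (blue) below 0; the intervals of Fst and the second Tgfbr1 probe also miss 0, but these probes were not called after adjustment.

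**Figure D3:**
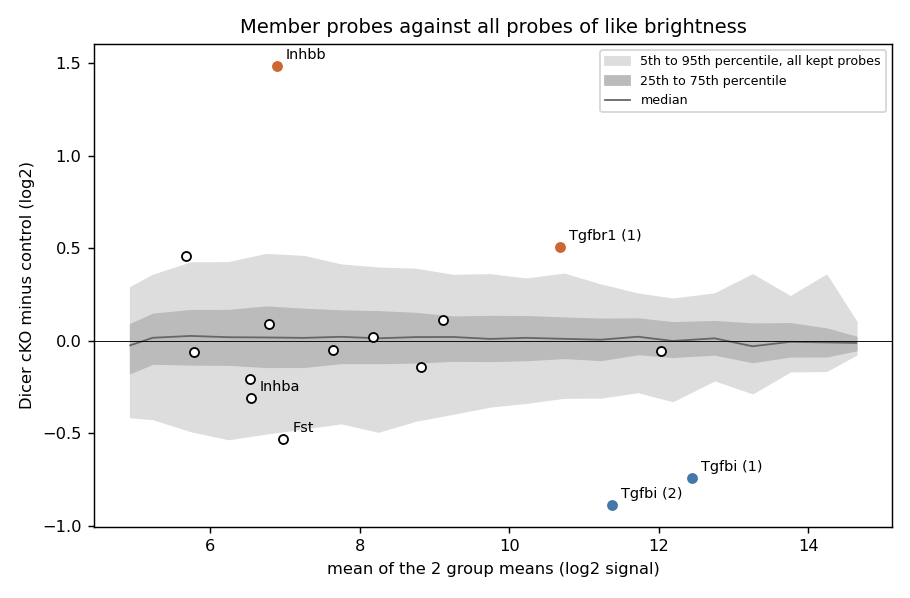
Difference between Dicer cKO and control pools (log2, vertical axis) against the mean signal (log2, horizontal axis) for the 15 tested probes, over the percentiles of all kept probes in bands of like signal (grey). Inhbb, Tgfbr1 (1) and both Tgfbi probes lie outside the band that holds 90% of probes of like signal, Fst and Tgfbr1 (2) lie just past its edge and the other probes lie within it.

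Tgfbi and Inhbb were read in whole uteri, where fewer cells of a type and less RNA per cell cannot be told apart, and markers of several cell types moved along with them. Of 8 endometrial stroma markers 3 were lower (Vim, Thy1 and Twist2) and none higher. The others, Pdgfra (-0.19), Pdgfrb (-0.06), Hoxa10 (-0.21), Hoxa11 (-0.06) and Col6a3 (0.10), were not called. The summed signal of this list was 17437 to 17995 in the control pools and 13258 to 15149 in the Dicer cKO pools. Such sums include the called genes, so they are no separate result. Of 7 uterine epithelium markers 6 were tested and 3 were lower (Krt8, Krt18 and Krt19), while Cldn7 (0.35), Esrp1 (-0.04) and Cdh1 (-0.27) were not called, with sums of 6718 to 8074 and 5329 to 5481, and Epcam was not detected on any array. Of 7 macrophage markers 3 were higher (Cd68, Lyz2 and Gpnmb), with sums of 1455 to 1711 and 2210 to 2771. Csf1r (0.11), Adgre1 (0.36), Mrc1 (0.03) and Fcgr1 (0.33) were not called. For comparison, 2.68% of all gene names were called higher and 3.88% lower by their brightest probe. The part of these cell types in the differences of Tgfbi, Inhbb and Tgfbr1 was not tested.

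Adipocyte markers varied between pools of the same group. The summed signal of the 4 tested markers of 6 was 3747, 2594 and 2029 in the controls and 732 and 1585 in the knockouts. Control pool 7, with the lowest Inhbb and the highest Fst and Inhba, had the highest adipocyte sum. The same pool also had the highest sum of the uterine epithelium markers (8074, against 7285 and 6718 in control pools 9 and 11). Its endometrial stroma sum was the highest too (17995, against 17437 and 17475). Adipoq, Cfd and Cidec were each highest in pool 7 and were called lower. Lep differed by -0.21, was not called and was highest in control pool 11. Cfd had the highest signal of the tested markers in every pool and weighs most in the sums. Plin1 and Fabp4 were not detected on any array. The part of fat attached to the uterus in the differences of Inhbb, Fst and Inhba was not tested. Of the smooth muscle markers 0 of 7 were called by limma, with sums of 46198 to 48484 and 48618 to 49967; their differences ranged from -0.34 to 0.11, and 0 had an unadjusted p under 0.05. No tested marker of endothelium (6), leukocytes (2) or mesothelium (3) was called by limma either, with 1 endothelial gene (Cdh5, -0.25) at an unadjusted p under 0.05. The oviduct gene Ovgp1 was lower by 2.57 ± 0.39, while Foxj1 and Pax8 were not called.

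Ovary, a rich source of inhibin and activin subunits and of follistatin, was checked through its markers. Of 10 markers of granulosa cells, oocytes and theca 6, among them Amh, Fshr, Cyp19a1 and Star, were not detected on any array. The 4 tested were Foxl2, Gdf9 and Inha, detected on all 5 arrays, and Cyp17a1, detected on 2. Of these 0 were called by limma, nor had any an unadjusted p under 0.05. Foxl2 differed by -0.10 and Gdf9 by -0.004. Their summed signal was 278 to 300 in the control pools and 281 to 285 in the Dicer cKO pools. Inha, the alpha subunit of inhibin, read 5.58, 5.97 and 5.82 in the controls and 5.60 and 5.89 in the knockouts. Its difference was -0.04 ± 0.16.

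Other genes of the pathway, taken from a list of 65 grouped by role, were mostly not called. Each gene was read by its brightest kept probe. Of the 62 genes on the array 47 were tested, of which 5 were higher, 1 was lower and 41 were not called. That is 12.8% called, against 6.57% of the brightest probes of all 15733 gene names, with a median difference of 0.04 against 0.01 over those gene names. Of all those gene names 2.68% were higher and 3.88% lower. The list was fixed with earlier results of these data known. One of its higher genes, Gdf15, was kept only through the Dicer cKO arrays. These shares therefore describe the list only. The called genes were a receptor, a ligand, a binding protein and textbook targets.

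Among the 4 tested receptors and co-receptors, 1 was higher and 3 were not called. Acvr2b, a type II receptor of activins, read 9.76, 9.66 and 9.56 in the controls and 10.52 and 10.29 in the knockouts. Both Dicer cKO readings were above all controls, and Acvr2b rose by 0.74 ± 0.10 (limma adjusted p = 0.0017), a call that held in all 13 alternative settings. Acvr2a, the other activin type II receptor, differed by -0.09 ± 0.16, Acvr1 by 0.01 ± 0.10 and endoglin (Eng), the TGF-beta co-receptor of vessels, by 0.08 ± 0.09. Acvr1b, the main activin type I receptor, was not detected on any array, so its level was not measured by its brightest probe here.

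Among the 11 tested inhibitors and modulators, 1 was lower and 10 were not called. Fstl3, like follistatin a protein that binds activins, read 6.99, 6.82 and 6.81 in the controls and 6.23 and 6.21 in the knockouts. The Dicer cKO readings were clearly below every control, and Fstl3 fell by 0.66 ± 0.13 (limma adjusted p = 0.0134). Leaving out control pool 7, knockout pool 10 or knockout pool 12 ended the call (limma adjusted p = 0.0548, 0.104 and 0.0562), while the difference stayed between -0.71 and -0.48 in all 13 settings. The other 10 genes ranged from -0.27 (Tgfbrap1, a receptor-associated protein) to 0.30 (Tgif1, a repressor of SMAD-driven transcription, whose other kept probes were at -0.06 and 0.07). The decoy receptor gene Bambi was not detected on any array.

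None of the 4 tested SMAD genes and none of the 12 tested genes of TGF-beta latency, storage and activation was called by limma. At an unadjusted p under 0.05 the counts were 0 of the 4 SMAD genes and 4 of the 12 latency genes, against 19.6% of all kept probes. The 4 latency genes (Itgb6, Bgn, Dcn and Ltbp4) were all lower. By moderated t the foremost SMAD genes were Smad6, an inhibitory SMAD, at 0.19 ± 0.11, and Smad2 at 0.16 ± 0.10. The foremost latency genes were Itgb6, a subunit of the integrin that frees TGF-beta at epithelia, at -0.58 ± 0.16 (limma adjusted p = 0.0566), and biglycan (Bgn), a proteoglycan that binds TGF-beta, at -0.31 ± 0.10 (limma adjusted p = 0.110). A second Itgb6 probe differed by -0.52 ± 0.15 and was not called.

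Of 4 tested ligands and inhibin subunits, 1 was higher and 3 were not called. Gdf15, a stress-induced ligand of the family, was detected on both Dicer cKO arrays and on none of the control arrays. Its signal was at least 1.47-fold higher in the Dicer cKO pools. That bound sets the Dicer cKO mean against the higher of the lowest detected signal on each control array and the reading of the probe itself. The bound was not tested. The call belongs to the limma difference of 0.88 ± 0.15, which uses control readings below detection (limma adjusted p = 0.0064). Gdf15 met the detection requirement only through the Dicer cKO arrays, so its call and its place in the count of 5 higher genes give no support to the list. With detection required on all arrays it was not tested and 4 pathway genes were higher. With either Dicer cKO pool left out Gdf15 was not tested either. With no detection requirement it was still called (limma adjusted p = 0.0069).

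Of 12 tested textbook targets of TGF-beta, 3 were higher and 9 were not called. The higher genes were Cdkn1a (2.20 ± 0.12) and Cdkn2b (0.84 ± 0.17), both inhibitors of cyclin-dependent kinases, and Tsc22d1 (0.36 ± 0.08), a leucine zipper protein gene listed on the array under the name TGFB1I4. Cdkn1a is also a target of p53 and of other pathways. The call of Cdkn2b was lost without control pool 7 or knockout pool 12 (0.84 and 0.57; limma adjusted p = 0.0522 and 0.0940), and that of Tsc22d1 in 5 of 13 settings, with a second Tsc22d1 probe at -0.08 ± 0.19. Among matrix targets, Col1a1 differed by 0.09 ± 0.07, Col1a2 by -0.30 ± 0.09, Fn1 by 0.31 ± 0.09 and Ccn2 by 0.05 ± 0.18, and these genes were not called. Postn was not detected on any array.

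**Figure D4:**
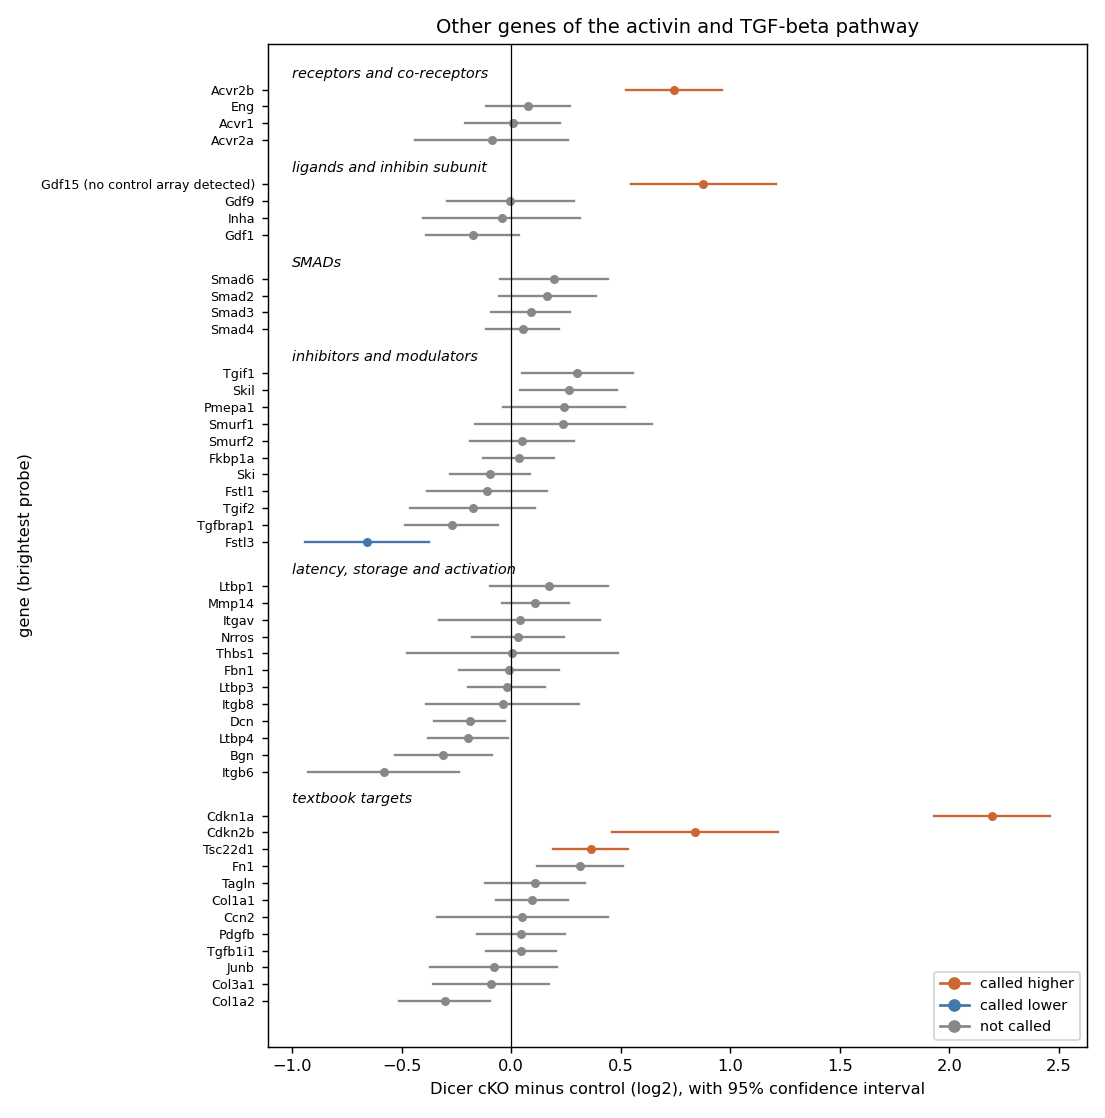
Difference between Dicer cKO and control pools (log2, horizontal axis) with 95% confidence intervals for the 47 tested pathway genes (vertical axis), grouped by role. Acvr2b, Gdf15, Cdkn1a, Cdkn2b and Tsc22d1 (orange) were called higher and Fstl3 (blue) lower; Gdf15 was not detected on any control array, so its plotted value is not a bound.

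Likeness of pattern was measured as the root mean square distance between log2 signals over the 5 pools, each probe centred on its own mean, which is a description over 5 arrays. Nearest to Inhbb were Slc35g1 (distance 0.22), the Wnt ligand gene Wnt7b (0.23) and the chemokine gene Cxcl14 (0.25). All 3, like Inhbb, were lowest in control pool 7 and higher in both Dicer cKO pools than in any control. They were chosen for their likeness to Inhbb over these same pools, so this shared pattern is no separate result. Nearest to the bright Tgfbr1 probe were Tril (0.02), Zfp473 (0.03) and Mcph1 (0.03). Zfp473 was detected on no control array and was kept only through the Dicer cKO arrays. Neither Zfp473 nor Mcph1 was called (limma adjusted p = 0.099 and 0.053). Nearest to the brighter Tgfbi probe were Kyat1 (0.04), Slc12a8 (0.05) and Radx (0.05).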

How the data were processed

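Total RNA of uteri, in pools by the sample titles, was labelled with biotin and read on Illumina bead arrays per the labels' protocols, and BeadStudio is the software per the submitters' processing notes (version not stated). Each deposited file gives, per the file headers, the mean intensity over the beads of a probe (linear scale), its SD, the number of beads and a detection score from 0 to 1, whose difference from 1 was used as detection p. The lowest intensities, 27.9 to 29.5, and array medians from 57.5 to 63 show no subtraction of background and no normalization. Array precision rests on 5 arrays.

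Values were background-corrected with normexp from the detection p (offset 16), quantile-normalized and put on a log2 scale as in limma's neqc (limma 3.58.1, R 4.3.3). Of 45281 probes, 22845 with detection p under 0.05 on at least 2 of 5 arrays were kept. Control (n = 3) and Dicer cKO (n = 2) pools were compared with lmFit and eBayes with an intensity trend, 2-sided, adjusted by Benjamini-Hochberg over all kept probes; the fit was tested on simulated data. A pathway gene was read by its brightest kept probe. All member probes are given; of the pathway list, called genes are named and, in role groups with none, the 2 foremost by moderated t, and further genes were chosen after their values were seen. Members and lists were chosen with earlier results of these data known. No batch is named in the labels or files. A table of the whole series was not used, since its rows carry identifiers that the array files do not hold.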

Additional observations from a re-analysis of the deposited data

How the results depend on the processing

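The differences of the member probes and of the called pathway genes, and the counts of calls, were recomputed under 13 alternatives. These were an offset of 50, no background correction, median scaling in place of quantile normalization, no intensity trend and a robust spread. Further ones were detection required on all arrays or on none, 1 probe per gene name, and each pool left out in turn. The cell type markers and their sums, Dicer1, Pgr, the within-array differences and the likeness of pattern were not recomputed. No paired analysis was possible because the pool numbers of the groups are all different. Both Tgfbi probes and the bright Tgfbr1 probe kept their direction and call wherever they were tested, with the Tgfbi probes between -0.85 and -0.64 and between -1.05 and -0.73, and Tgfbr1 between 0.45 and 0.56, with pools left out. Inhbb kept its direction in all 13 and its call in 10. With a robust spread its difference of 1.49 was not called (limma adjusted p = 0.0605), nor was it with 1 knockout pool alone, and it ranged from 1.13 to 1.68 with pools left out.

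The count of member probes called higher was 1 with a robust spread and 1 to 2 with pools left out; the count lower was 1 with 1 probe per gene name, where only 1 Tgfbi probe remains, and 2 with every pool left out. Pathway genes called higher numbered 2 to 6 with pools left out, and those called lower 0 to 2 with pools left out and 2 with a robust spread. Without knockout pool 10 the calls over all probes fell from 536 to 104 higher and from 804 to 252 lower, and the share of calls that were higher fell from 40% to 29.2%. Signs turned for Tgfb1, Tgfb2, both Tgfbr3 probes and 2 Tgfbr2 probes, none of them called; the second Tgfbr2 probe was the largest of these, at -0.21 with all pools. Tgfb2 was at -0.029 with median scaling. With pools left out, Tgfb1 ranged from -0.127 to 0.028, Tgfb2 from -0.109 to 0.149, Tgfbr2 from -0.134 to 0.016 and, by its second probe, from -0.457 to 0.043, and Tgfbr3 from -0.058 to 0.279 and from -0.088 to 0.269. The causes were not tested. Probes of low signal, such as Inhbb and the second Tgfbr1 probe, have their differences compressed by the offset. At an offset of 50 they differed by 1.13 and 0.28.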
